A study of Mus musculus with 8 samples.

Results

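Mouse oocytes carry a reserve of lipid droplets and rely on the oxidation of fatty acids in their mitochondria during maturation. The transcripts described here are those of 10 genes that code for this route, chosen by symbol from a table of 25574 genes: Cpt1a, Cpt2, Acadm, Acadl, Acadvl, Hadha, Hadhb, Plin2, Plin3 and Pnpla2. All 10 were found, each in 1 row. They were compared between the non-polysomal (NP) and the polysomal (P) part of sucrose gradients loaded with lysates of mouse oocytes. The gradients sort particles by how fast they sediment, and mRNAs that carry several ribosomes run into the P part. The paper could not exclude that heavy stored particles with inactive ribosomes run there too. Presence in P therefore does not by itself show translation. The question was whether the messengers of fat storage and fat burning are found in the P part at this stage.

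The data comprised 4 NP and 4 P libraries. In both datasets the oocytes came from 8 weeks old mice of the outbred CD1 strain, had no transgene or other genetic change named in the labels, and were taken 46 h after an injection of 5 IU of pregnant mare serum gonadotropin (PMSG). They were freed of their follicle cells, cultured for 180 min without the inhibitor IBMX, which holds oocytes in the germinal vesicle stage, and thereby reached nuclear envelope breakdown (NEBD), the start of meiotic maturation. They then stood for 10 min in 0.1 mg/mL cycloheximide, which stalls ribosomes on the mRNA. Each profile pooled 200 oocytes, so fewer oocytes with a transcript and less of it per oocyte cannot be told apart. Of 10 gradient fractions, fractions 2 to 5 made up the NP and fractions 6 to 10 the P dataset. Both datasets were drawn from the same 4 profiles, and the main tests did not use this pairing. The authors left out the top fraction and could not fully exclude that it held some stored particles. The paper describes the 4 profiles as independent biological replicates, and no source used here says whether they came from separate animals or days, so p-values measure the spread between these libraries. Oocytes of this stage do not transcribe, so a level is a level of stored maternal mRNA.

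A fatty acid is first released from the triacylglycerol of a droplet by adipose triglyceride lipase, the product of Pnpla2. Droplets are coated by perilipins, among them those coded by Plin2 and Plin3. The acid is activated to its acyl-CoA, passed to carnitine by CPT1 at the outer mitochondrial membrane and handed back to coenzyme A inside by CPT2. In the matrix, an acyl-CoA dehydrogenase that fits the chain length (ACADVL for very long, ACADL for long and ACADM for medium chains) makes the first oxidation. The mitochondrial trifunctional protein, built of HADHA and HADHB subunits, carries out the remaining steps on long chains.

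Stored oocyte mRNAs are known to be recruited to ribosomes at maturation through short elements near the 3′ end, above all the cytoplasmic polyadenylation element (CPE), read here as TTTTAT or TTTTAAT, together with the hexamer AATAAA or ATTAAA of the poly(A) signal. The last 100 bases of the 3′ UTR, on the coding strand and up to the gene end that the deposited table gives, held a CPE in 2 of the 10 genes, Plin3 and Acadm. Over 11061 tested genes with a 3′ UTR of that length the share was 19.4%. A hexamer was found in 8 of the 10 genes, all except Plin2 and Pnpla2, and in 80.3% of the 11061 genes. The CPE of both genes and, for comparison, the hexamer of 3 genes without a CPE in this window are shown 5′ to 3′ with the element in capitals, from GRCm38 and the GENCODE vM21 annotation.
Plin3, CPE, minus strand of chr17:56278964-56278993: tgccttaataaaTTTTATatgcatcagagg
Acadm, CPE, minus strand of chr3:153922387-153922416: actgaacgagaaTTTTATttgtcttgttta
Hadha, hexamer, minus strand of chr5:30118307-30118336: ccttgaggtttcATTAAAcaactgtgagaa
Hadhb, hexamer, plus strand of chr5:30184552-30184581: ttggttgaccttAATAAAgtagacatgtat
Cpt2, hexamer, minus strand of chr4:107903986-107904015: tgtttaaatagaAATAAAcccagtgttgct
In Plin3 the CPE starts 20 and the hexamer 26 bases before the gene end of the table. The annotation holds a Plin3 transcript that runs 1486 bases further, and the last 100 bases of that one held no CPE. In Acadm the CPE starts 48 and the hexamer 21 bases before the end. These matches are descriptions of the letters, and whether the elements act in these oocytes was not tested.

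Hadha and Hadhb lie head to head on chromosome 5 and are transcribed away from each other, with RefSeq starts 273 bases apart. In the deposited table the starts are 86 bases apart, since Hadha reaches further there, and 160 of the bases shown lie inside that span of Hadha. The stretch between the RefSeq starts is shown because the promoter windows of both genes hold it while their transcript levels were far apart, as given further on. It is taken from the RefSeq promoters of GRCm38.p6 and runs 5′ to 3′ on the plus strand of chr5:30155003-30155230, with 228 bases of which 57.0% are G or C.
Hadha-Hadhb: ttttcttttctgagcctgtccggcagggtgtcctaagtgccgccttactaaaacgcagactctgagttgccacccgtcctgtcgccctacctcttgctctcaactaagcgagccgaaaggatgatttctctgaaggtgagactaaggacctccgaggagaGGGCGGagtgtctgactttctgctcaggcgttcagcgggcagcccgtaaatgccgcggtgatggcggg
The capitals mark the 1 GGGCGG motif that a search of both strands found. A CCAAT motif was not in this window. In windows of the same length, 29.5% of 32851 RefSeq promoters held GGGCGG and 31.9% held CCAAT on either strand. A divergent start within 1000 bases was found for 10.5% of 27025 genes.

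The levels are FPKM values, reads per length of gene and per number of reads in the library, so each library is scaled to its own total. A difference between P and NP is therefore a difference of 2 relative levels and not the share of a transcript's molecules that sat on polysomes. Within a library, the FPKM values of a gene were whole multiples of 1 step, and these steps, here called reads, show how much was counted behind each level. The number to which a library was scaled, recovered from the steps, ran from 1299377 to 7594637 over the NP libraries and from 2677946 to 4699328 over the P libraries. Between 11703 and 13753 genes were above 0 in an NP library and between 9139 and 11339 in a P library. The cDNA was amplified from a small input without molecular identifiers, so reads are not independent molecules, and intervals and limits drawn from them cover counting error only. The libraries were those of oocytes by their markers: all 12 oocyte markers had a mean above 1 FPKM, with a sum of 6872 to 13538 FPKM in NP and 8935 to 34437 in P. Of 12 granulosa and cumulus cell markers 2 had a mean above 1 FPKM, and the summed level was 6.07 to 82.8 in NP and 1.61 to 62.6 in P. Cyp19a1 reached 75.2 FPKM in NP replicate 4 and 62.6 in P replicate 2, and Kitl 10.3 in P replicate 3. Amhr2, Inhba, Foxl2, Has2 and Ptx3 were listed at 0 in all 8 libraries. Theca and stroma markers summed to at most 1.70 FPKM. Blood and endothelium markers summed to 12.7 to 99.4 FPKM in NP and 6.36 to 77.7 in P, with Ptprc, Cdh5, Hba-a1 and Emr1 at 0. Pecam1 was above 0 in all 8 libraries, at up to 63.5 FPKM in NP and 77.7 in P. Cd68 was at 35.9 FPKM in NP replicate 1 and at 0 in P. All 6 adipocyte markers, among them Plin1 and Cidec, were listed at 0 in all 8 libraries.

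Messengers of fatty acid oxidation and of the droplet coat were found in both datasets for 9 of the 10 genes. For Acadl in P this rested on 4 reads in 1 library, and for Acadvl in NP on 7 reads. Hadha had the highest median of the 10 in NP and in P, and Cpt1a, with a few reads in NP, had none in P. The clearest separation was in the droplet coat: every NP library held more Plin3 than every P library, which was so for 5.92% of all genes tested and was lost with either of the other scalings tried. No gene of the 10 passed the test between the datasets. Of the 10 genes, 9 had a mean above 0.1 FPKM in at least 1 dataset and were tested. Each of the 9 passed that filter in both datasets, Acadl in P only just, with a mean of 0.106 FPKM. With limma on log2(FPKM + 1) and Benjamini-Hochberg adjustment over 14292 genes, 0 of the 9 had an adjusted p under 0.1, the lowest adjusted p was 0.493, and the share of all genes that passed was 0.021%. At an unadjusted p under 0.05, 2 of the 9 genes (22.2%) were lower in P, Plin3 and Acadl, against 9.47% of all genes. No gene of the 9 was higher in P at that level, against 0.476% of all genes. The voom method on the recovered reads, an alternative chosen after seeing the data, called 0 of the 9 genes and 0.412% of 12130 genes.

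**Figure D1:**
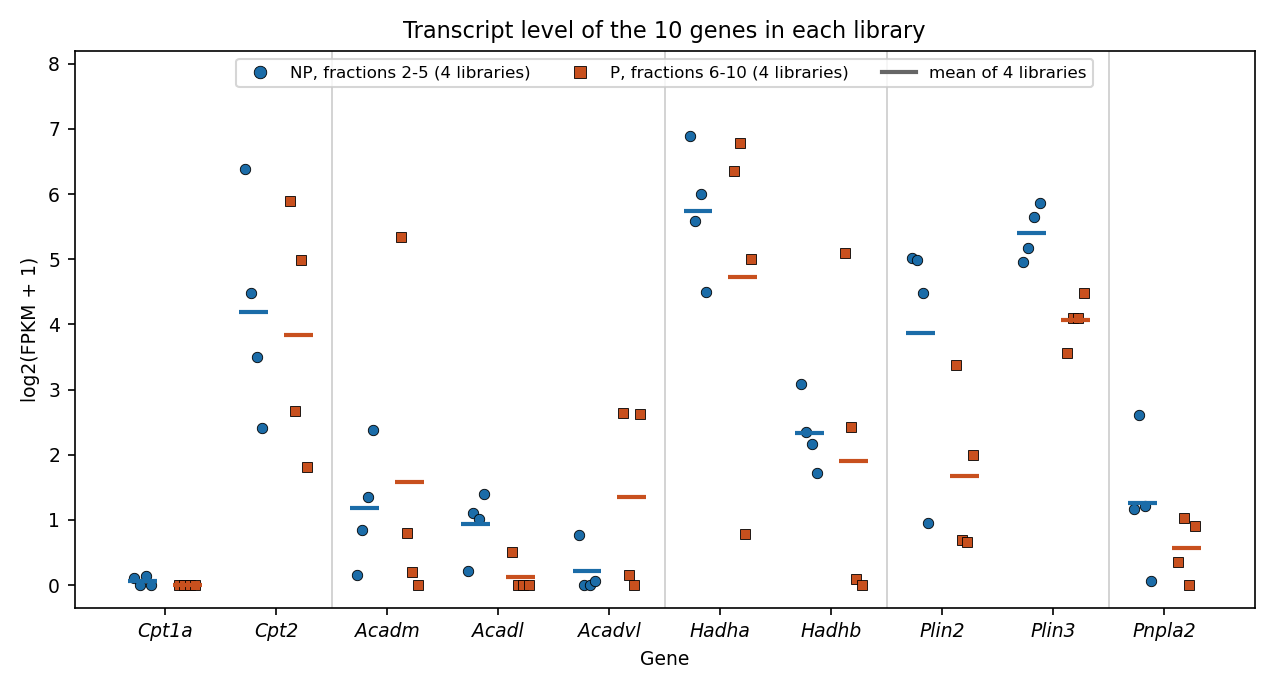
Transcript level of the 10 genes, as log2(FPKM + 1), in the 4 NP libraries (circles) and the 4 P libraries (squares), with replicates 1 to 4 from left to right and a bar at the mean of each dataset. The NP and P points of Plin3 do not overlap, Hadha falls far below its other values in 1 P library, and Acadm and Hadhb each have 1 P library far above the rest.

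The difference of the dataset means was below 0 (lower in P) for 7 of the 9 genes and above 0 for 2. The median of the 9 differences was −0.69 on the log2 scale, and over all genes tested it was −0.39, with 71.4% of all genes below 0. This balance depended on how the libraries were scaled to each other. With the libraries scaled to one median, 6 of the 9 genes were below 0 and the median over all genes was −0.18. With quantile normalization, 4 were below 0, the median of the 9 was 0.07, and the median over all genes was −0.02. The direction of a gene is therefore given below together with its value in each library.

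**Figure D2:**
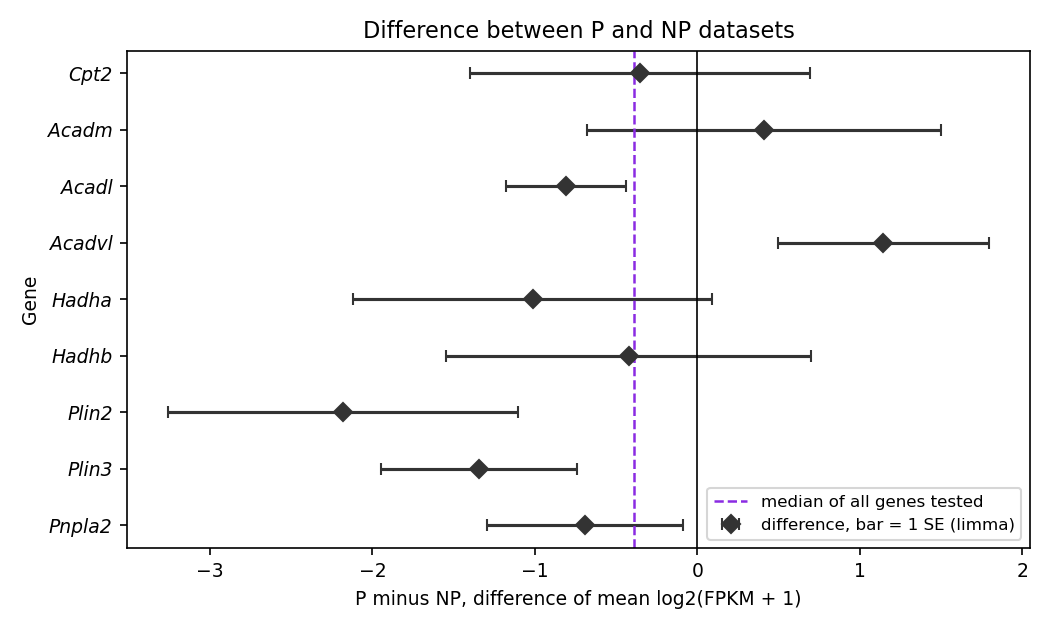
Difference between the P and NP means on the log2(FPKM + 1) scale for the 9 tested genes, with 1 standard error from limma on each side. The dashed line is the median of all genes tested, −0.39, and the differences of Plin2, Plin3, Hadha, Acadl and Pnpla2 lie to its left, those of Cpt2 and Hadhb close to it, and those of Acadm and Acadvl to the right of 0.

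Of the 2 carnitine transferases among the 10 genes, Cpt2 was found in every library and Cpt1a was at or near 0. Cpt2 (chromosome 4, positions 107903981 to 107923610, minus strand, GRCm38) codes for the enzyme on the matrix side. It was at 82.5, 21.2, 10.3 and 4.30 FPKM in NP replicates 1 to 4 and at 58.7, 5.35, 30.7 and 2.50 FPKM in P replicates 1 to 4. These values rested on 66 to 630 reads in NP and 16 to 659 reads in P. The datasets overlapped over nearly their whole range, and replicate 4 was the lowest and replicate 1 the highest in both. The mean was 29.6 ± 36.0 FPKM in NP and 24.3 ± 26.2 in P (SD, n = 4). The difference on the log2 scale was −0.35 with a standard error of 1.05 (limma, adjusted p = 0.892).

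Cpt1a (chromosome 19, 3323301 to 3385732, plus strand) codes for the liver form of the enzyme on the outer membrane, the rate-limiting step of entry. Its levels were 0.0729, 0, 0.0958 and 0 FPKM in NP and 0 in each P library. Behind them stood 1 and 3 reads in NP replicates 1 and 3 and no read elsewhere. A count of 0 allows up to 3 reads, which is 0.149 to 0.261 FPKM in the P libraries and up to 0.537 in NP replicate 2. A difference was not detectable at this depth and no fold change was computed. The muscle form Cpt1b was listed at 0 in all 8 libraries. Another form, Cpt1c, was at 0.561, 1.65, 0.984 and 0 FPKM in NP and at 0, 0.112, 0 and 0 FPKM in P. In every library Cpt2 was above Cpt1a by 1.81 to 6.28 on the log2 scale of the within-library ratio with 1 FPKM added to each. Since Cpt1a was at or near 0, this ratio is mainly the level of Cpt2, and its test adds little to that of Cpt2.

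The 3 acyl-CoA dehydrogenases were low, and none of them had a median above 3 FPKM in either dataset. Acadl (chromosome 1, 66830839 to 66863277, minus strand), for long chains, was at 0.156, 1.15, 1.03 and 1.64 FPKM in NP, from 1, 3, 15 and 25 reads. In P it was at 0.425 FPKM, from 4 reads, in replicate 1 and at 0 in the other libraries. NP replicate 1 lay below P replicate 1, so the datasets overlapped by 1 library on each side. The difference was −0.81 with a standard error of 0.37, with an unadjusted p of 0.0472 and an adjusted p of 0.495 in limma. The exact permutation test over the 70 ways to divide the 8 libraries gave a 2-sided p = 0.0571, where the smallest possible is 0.0286. A count of 0 allows up to 3 reads, or 0.337 to 0.559 FPKM in P replicates 2 to 4, which is below the values of NP replicates 2 to 4. The value of NP replicate 2 itself rests on 3 reads and has its own counting error. NP replicate 1, with 1 read, lay below these limits.

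Acadm (chromosome 3, 153922357 to 153944632, minus strand), for medium chains, was at 0.107, 0.787, 1.55 and 4.18 FPKM in NP. In P it was at 39.4 FPKM in replicate 1, at 0.745 and 0.153 in replicates 2 and 3, and listed at 0 in replicate 4. P replicate 1 alone held 97.8% of the summed P level, from 543 reads, against 7, 2 and 0 reads in the other P libraries. The difference was 0.41 with a standard error of 1.09 (limma, adjusted p = 0.881), and without P replicate 1 it was −0.84.

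Acadvl (chromosome 11, 70010183 to 70015411, minus strand), for very long chains, was the gene of the 9 with the highest difference. It was at 0.700, 0, 0 and 0.0490 FPKM in NP, from 6, 0, 0 and 1 reads. In P it was at 5.23 and 5.14 FPKM in replicates 1 and 4, from 66 and 37 reads, at 0.116 FPKM in replicate 2 and at 0 in replicate 3. Thus 2 of the 4 P libraries lay above all NP libraries and the other 2 within their range. The difference was 1.15 with a standard error of 0.65 (limma, adjusted p = 0.550). Acadvl shares 1151 bases of exon with Dvl2 on the opposite strand, and the library kit does not mark strand, so reads of the 2 genes cannot be told apart there. Dvl2 was at 46.2, 25.4, 29.3 and 32.6 FPKM in NP replicates 1 to 4 and at 29.6, 39.9, 0.0714 and 7.95 FPKM in P replicates 1 to 4. The part of Dvl2 reads in the Acadvl levels was not tested.

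The trifunctional protein was represented by the most and by a far less abundant transcript. Hadha (chromosome 5, 30118301 to 30155162, minus strand) codes for the subunit with the hydratase and dehydrogenase activities. It was at 118, 46.8, 63.3 and 21.5 FPKM in NP and at 80.5, 110, 0.716 and 31.1 FPKM in P. The reads behind these values numbered 2012, 325, 2462 and 873 in NP and 2021, 1880, 17 and 445 in P. In 3 of the 4 P libraries Hadha lay inside the NP range, and in P replicate 3 it was lower than in any other library. The same library held 326 reads of Cpt2 and 154 reads of Plin3. Means were 62.4 ± 40.9 FPKM in NP and 55.5 ± 48.9 FPKM in P (SD, n = 4). The difference was −1.01 with a standard error of 1.10 (limma, adjusted p = 0.717), and it turned to 0.30 without P replicate 3. Hadha shares 75 bases of exon with Garem2 on the opposite strand.

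Hadhb (chromosome 5, 30155248 to 30184593, plus strand) codes for the thiolase subunit. It was at 7.46, 4.08, 3.50 and 2.30 FPKM in NP, the narrowest fold range of a gene of fatty acid oxidation in that dataset. In P it was at 33.3, 4.40, 0.0682 and 0 FPKM, from 1032, 93, 2 and 0 reads, so that P replicate 1 lay above and P replicates 3 and 4 below all NP libraries. The difference was −0.42 with a standard error of 1.12 (limma, adjusted p = 0.880), and it was 0.18 without P replicate 3 and 0.21 without P replicate 4. Processed pseudogenes Gm13910 and Gm9108 match Hadhb over 1428 and 1426 bases at 99.79% and 97.616% identity and are not in the table, so the Hadhb counts could depend on how such reads were placed.

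Levels of the 2 subunit transcripts were compared within each library. Hadha was above Hadhb in all 8 libraries, by 2.77 to 3.84 on the log2 scale in NP, and by 1.25, 4.36, 0.68 and 5.01 in P replicates 1 to 4, each with 1 FPKM added. On this scale the spread in P (SD 2.17, n = 4) was wider than in NP (SD 0.51, n = 4), but 2 of the P values depend on the added 1 FPKM. In P replicate 3 Hadhb was at 0.0682 FPKM. Without the addition Hadha was there 10.5 times Hadhb, inside the NP range of 9.37 to 18.1 times. In P replicate 4 Hadhb was at 0, so no such ratio exists. The mean of the log2 ratio was 3.41 in NP and 2.82 in P, a difference of −0.59 (exact permutation test, 2-sided, p = 0.6, adjusted p = 0.72 over 6 pairs). The FPKM of Hadhb was divided by the authors by a length of 6595 bases, while its coding transcript has 2048, and that of Hadha by 5341, with a coding transcript of 4017. Dividing the reads by the coding transcript instead, Hadha was 3.87 to 7.47 times Hadhb in NP, and 0.998, 10.3 and 4.33 times in P replicates 1 to 3. In P replicate 1 the 2 subunits were then level, and in P replicate 4 there were 445 reads of Hadha and none of Hadhb.

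The 2 perilipin transcripts had their higher means in NP. Plin3 (chromosome 17, 56278962 to 56290511, minus strand) codes for a perilipin that moves between cytosol and droplet. It was at 30.0, 34.9, 49.2 and 57.0 FPKM in NP and at 10.8, 16.2, 16.0 and 21.4 FPKM in P. The reads numbered 98 to 934 in NP and 110 to 154 in P. Every NP library was above every P library, which held for 1 of the 9 genes (5.92% of all genes), while no gene of the 9 had every P library above every NP library, against 0.357% of all genes. The means were 42.8 ± 12.5 FPKM in NP and 16.1 ± 4.33 FPKM in P (SD, n = 4), and relative to the mean this spread was the smallest of the 9 genes in both datasets. The difference was −1.35 with a standard error of 0.61, with an unadjusted p of 0.0433 and an adjusted p of 0.493 in limma. The exact permutation test gave a 2-sided p = 0.0286, the smallest that 4 against 4 unpaired libraries can give. The difference of Plin3 minus the median over all genes was −0.95 as deposited, −0.67 with the libraries scaled to one median and −0.99 with quantile normalization. Under both of those scalings the datasets overlapped. Leaving out any 1 library kept the difference between −1.50 and −1.18.

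Plin2 (chromosome 4, 86648386 to 86670060, minus strand) codes for the perilipin that sits on droplets in most tissues. It was at 31.5, 30.7, 21.4 and 0.937 FPKM in NP and at 9.39, 0.622, 0.576 and 2.98 FPKM in P. The first 3 NP libraries were above all P libraries, while NP replicate 4, with 25 reads, fell among the P values. The means were 21.1 ± 14.2 FPKM in NP and 3.39 ± 4.15 FPKM in P (SD, n = 4). The difference was −2.18 with a standard error of 1.08 (limma, unadjusted p = 0.0623, adjusted p = 0.522), and −3.15 without NP replicate 4. An unprocessed pseudogene, Gm12551, matches Plin2 over 259 bases at 96.139% identity and is not in the table. NP replicate 4 was at the same time the library with the most Plin3. The log2 ratio of Plin2 to Plin3 was 0.07, −0.18, −1.16 and −4.90 in NP and −0.19, −3.41, −3.43 and −2.50 in P. The difference of these ratios, −0.84, was smaller than their spread in NP (SD 2.30, n = 4; exact permutation test, adjusted p = 0.72).

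Pnpla2 (chromosome 7, 141455198 to 141460743, plus strand), which codes for the lipase that opens triacylglycerol, was low in both datasets. It was at 1.24, 5.10, 1.32 and 0.0436 FPKM in NP and at 0.282, 1.03, 0 and 0.866 FPKM in P. No library held more than 29 reads. NP replicates 1 to 3 were above all P libraries, and NP replicate 4, again the lowest, had 1 read. The difference was −0.69 with a standard error of 0.60 (limma, adjusted p = 0.667). Within a library, Pnpla2 was below Plin2 in all 4 NP libraries and in 3 of the 4 P libraries, and the ratio differed by 1.49 between the datasets (exact permutation test, p = 0.171, adjusted p = 0.72).

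**Figure D3:**
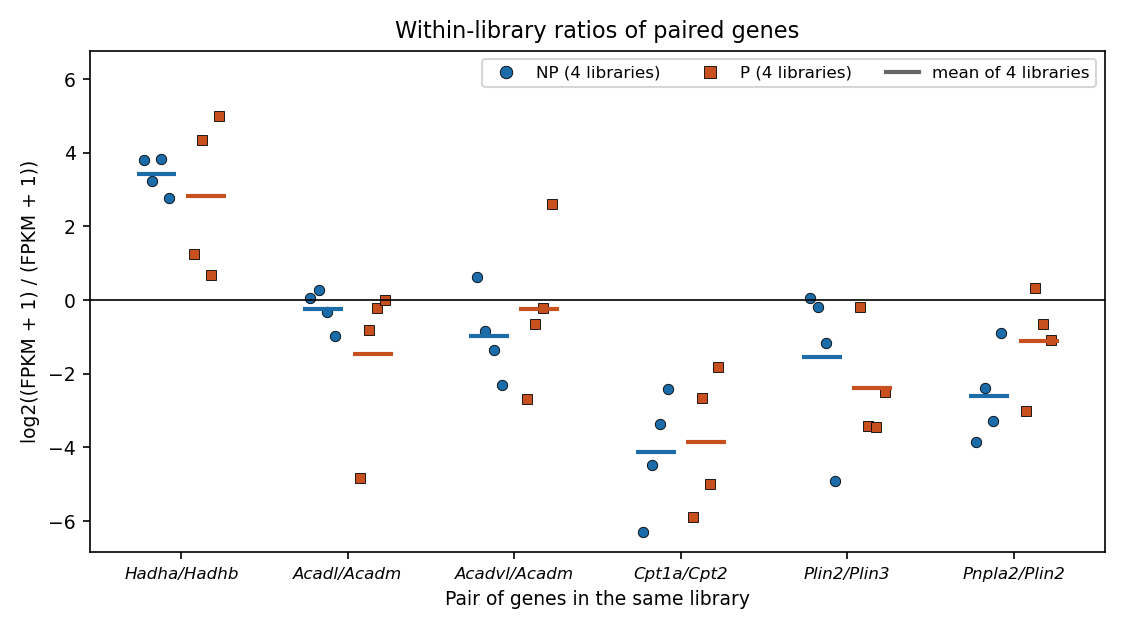
Within-library log2 ratios, with 1 FPKM added to each gene, for 6 pairs of genes that act at one step or at successive steps, in the 4 NP (circles) and 4 P (squares) libraries with a bar at each mean. Hadha lies above Hadhb in all 8 libraries, Cpt1a lies below Cpt2 in all 8, and the NP and P points of every pair overlap, with adjusted p between 0.72 and 0.8 in the exact permutation test.

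Ordered by the median over the 4 libraries, the NP levels ran from Hadha (55.1 FPKM) through Plin3 (42.1), Plin2 (26.1), Cpt2 (15.8), Hadhb (3.79), Pnpla2 (1.28), Acadm (1.17) and Acadl (1.09) to Cpt1a (0.0364) and Acadvl (0.0245). Of the neighbours in this order, all overlapped in their ranges except Acadl and Cpt1a. In P the order was Hadha (55.8), Cpt2 (18.0), Plin3 (16.1), Acadvl (2.63), Hadhb (2.23), Plin2 (1.80), Pnpla2 (0.574) and Acadm (0.449), with Cpt1a and Acadl at a median of 0. Here only Plin3 and Acadvl did not overlap. Plin2 thus stood 3 places lower in P than in NP, and Acadvl 6 places higher. These are orders of levels per length, and the lengths used for Hadhb and Hadha bear on them as described above.

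Single libraries weighed heavily on some of these levels, as they did over all genes. Of the 40 values of the 10 genes in each dataset, 4 were 0 in NP and 11 in P. Over all genes too, fewer were above 0 in each P library (9139 to 11339) than in any NP library (11703 to 13753). A single P library held more than 75% of the summed P level for 3 of the tested genes, which was so for 31.1% of all genes, and a single NP library for 1, against 20.4% of all genes. P replicate 1 had the highest P value of 6 of the 9 genes (Cpt2, Acadm, Acadl, Acadvl, Hadhb and Plin2), and of 33.5% of all tested genes above 0 in P. NP replicate 1 was highest for 5 of the 9 and for 21.8% of all genes. The summed level of the 10 genes was 272, 145, 152 and 91.9 FPKM in NP and 238, 138, 48.2 and 64.0 FPKM in P. The part of input amount or amplification in these differences was not tested.

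The wider pathway was described with 100 genes in 8 lists that include the 10 genes. All 100 were in the table, and 79 passed the filter. Of these 0 had an adjusted p under 0.1, 9 (11.4%) were lower in P at an unadjusted p under 0.05, against 9.47% of all genes, and 0 were higher. All NP libraries were above all P libraries for 4 of the 79 genes (5.06%), against 5.92% of all genes. Without the 10 genes, 7 of 70 were lower in P at that level. The median difference over the 79 genes was −0.45, beside −0.39 over all genes. The lists were thus near the background in each of these counts.

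By role, 1 of 11 tested genes of the carnitine shuttle, 1 of 12 of the acyl-CoA dehydrogenases and electron transfer, 1 of 7 of the steps from hydration to thiolysis, 1 of 11 of peroxisomal oxidation and 1 of 9 of the droplet coat had an unadjusted p under 0.05, each lower in P, where 9.47% of all genes did. The lipolysis list had 0 of 6, triacylglycerol synthesis 2 of 14 and the transcription factors of lipid oxidation 2 of 9. Triacylglycerol synthesis had the lowest median of the 8 lists, −1.07, with 12 of its 14 genes (85.7%) below 0, against 71.4% of all genes. With quantile normalization its median was −0.55 and 10 of the 14 were below 0, against 51.0% of all genes. Of the droplet list, Plin1, Plin4, Plin5, Cidea, Cidec, Fitm1 and Hsd17b11 were listed at 0 in all 8 libraries, so Plin2 and Plin3 were the 2 perilipins with any read.

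**Figure D4:**
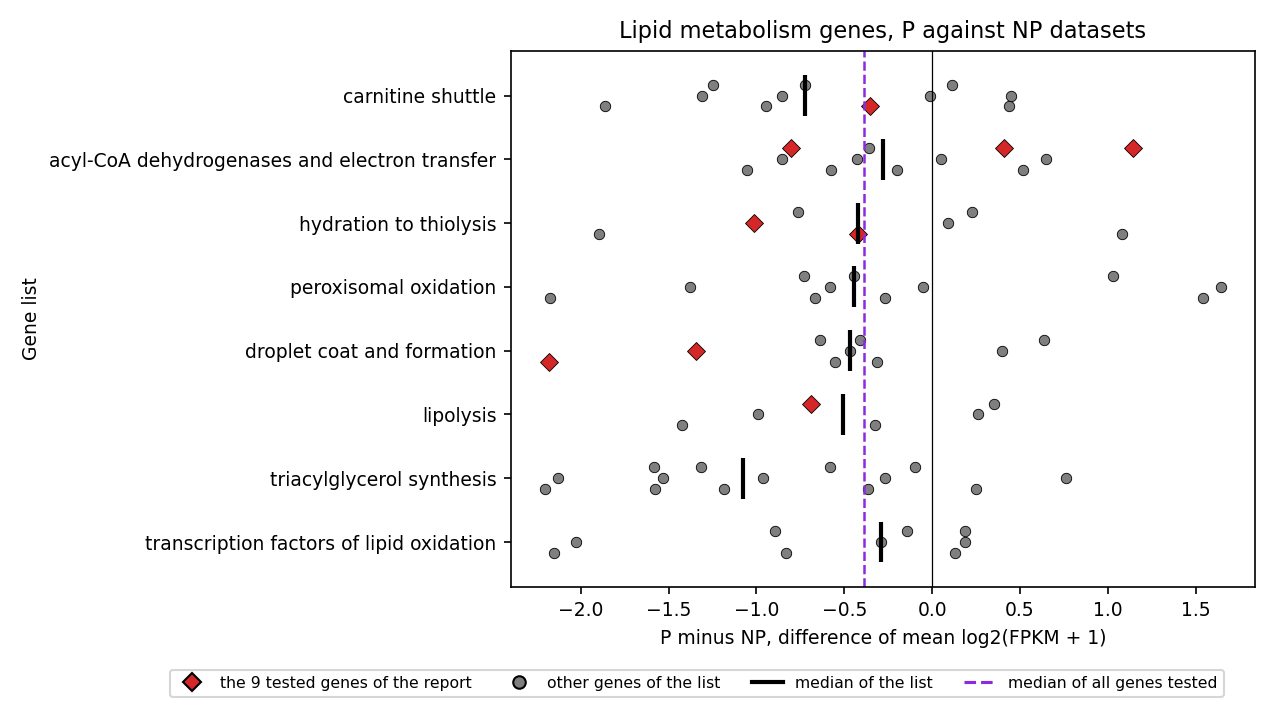
Difference between P and NP means on the log2(FPKM + 1) scale for the 79 tested genes of 8 lists, 1 point per gene, with the 9 tested genes of the report as diamonds and a bar at the median of each list. List medians lie between −1.07 and −0.28 on either side of the median of all genes (dashed line, −0.39), and no gene passed the adjusted threshold.

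Among the genes with the lowest differences at an unadjusted p under 0.05 were Dgat2 and Ppard. Dgat2, which codes for an enzyme of the last step of triacylglycerol synthesis, was at 64.2, 85.1, 44.4 and 41.4 FPKM in NP and at 34.2, 21.6, 3.90 and 5.14 FPKM in P, with no overlap. Its difference was −2.20 with a standard error of 0.75 (limma, adjusted p = 0.416). Ppard, a nuclear receptor that turns on genes of fatty acid oxidation, was at 5.75, 7.81, 7.45 and 24.9 FPKM in NP and at 1.93, 0.202, 7.14 and 0.161 FPKM in P. P replicate 3 lay within the NP range, and the difference was −2.15 with a standard error of 0.94 (limma, adjusted p = 0.479). Another gene without overlap was Acsl6, an acyl-CoA synthetase, which was chosen for naming after its values had been seen (0.545 to 2.25 FPKM in NP, 0 to 0.537 in P).

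For each gene with a mean above 1 FPKM, the pathway gene with the most similar levels over the 8 libraries was found by the mean absolute difference of log2(FPKM + 1). For Cpt2 it was Abhd5, the activator of the lipase coded by Pnpla2, at 0.66. Abhd5 was at 58.4, 23.0, 11.2 and 1.60 FPKM in NP and at 106, 4.83, 16.0 and 10.4 FPKM in P, and so was highest in replicate 1 of both datasets, as Cpt2 was. For Plin3 it was Acox3, a peroxisomal oxidase, at 0.78. For Hadhb it was Acadsb, a dehydrogenase of branched short chains, at 0.88, with 33.6 FPKM in P replicate 1 and at most 0.704 in the other P libraries. Hadha was nearest to Lpin2, a phosphatidate phosphatase, at 1.16, the largest of these distances. Plin2 was nearest to the carnitine carrier gene Slc22a5 at 0.98. Among the genes of low level, Acadvl was nearest to Rxrb (0.59), Acadm to Acad10 (0.88) and Pnpla2 to Cpt1c (0.52). The libraries share their depth and amplification, and low genes are close to each other by their low level alone.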

How the data were processed

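RNA of SSP-profiling gradients (polysome profiling for scarce samples) was measured in 8 libraries of mouse NEBD-stage oocytes. The authors removed ribosomal RNA, primed reverse transcription with random and oligo(dT) primers, amplified the cDNA and prepared libraries without strand marks. Per the submitters' processing notes and the methods of the paper, reads were trimmed with Trim Galore 0.4.1, mapped to GRCm38 with Hisat2 2.0.5 and quantified in Seqmonk 1.40.0. The table used was deposited by the authors as FPKM per gene and library on a linear scale. Their deposited tables of ratios and of DESeq2 results hold fold changes and p-values and were not used.

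Datasets and replicate numbers came from the sample titles. The 14292 genes whose mean exceeded 0.1 FPKM in either dataset entered a 2-sided test in limma 3.58.1 (linear model, empirical Bayes with trend, R 4.3.3) on log2(FPKM + 1), a scale that understates changes of low genes, p-values being adjusted by Benjamini-Hochberg and called under 0.1. Shares of genes with 1 dominant library are over 14261 genes, repeated symbols being counted once. Single values were tested by exact permutation over 70 assignments, without pairing of libraries. Whole reads were recovered with annotated exon lengths for 6 of the 10 genes and searched lengths for the other 4, with a tolerance of 0.01 reads. The search can by itself bring values close to whole. voom was fitted to genes with at least 5 reads in at least 2 libraries. In pairs of libraries of 1 dataset, at least 44.5% of genes differed in level, so none was a repeat deposit. Analyses used Python 3.11.15, numpy 2.4.6, pandas 2.3.3, matplotlib 3.10.9 and blastn 2.17.0.

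The 10 genes, the 100 pathway genes and the marker lists were chosen with earlier results of these data known. Genes named outside the 10 were, in each direction, up to 3 pathway genes with the largest difference at an unadjusted p under 0.05 and a mean above 1 FPKM in the higher dataset, any pathway gene that limma called, and the nearest pathway gene of each of the 10 above a mean of 1 FPKM. One gene that this rule names is not reported here. Of the listed symbols, 5 were matched by an older symbol and Hbb-bs was not matched. Pseudocounts of 0.1 and 1, no filter and a filter of 1 FPKM, 2 scalings, a replicate block and leaving out each library were tried.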

Additional observations from a re-analysis of the deposited data

Results flagged for a closer look

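Among 32 sets of 4 libraries examined, each being a gene or a ratio in 1 dataset, 5 had 1 library separated from the other 3 by a gap that exceeds the 95% critical value of Dixon's test for a range of 4 values, which chance gives in about 1 in 20 sets of normally distributed values. These FPKM values are not so distributed: by the same rule 22.8% of all tested genes above 0 had a library set apart in NP and 34.0% in P, so the 5 sets are read as descriptions. The P level of Acadm was 39.4 FPKM in replicate 1 (0.981 of the range). The P level of Acadl was 0.425 FPKM in replicate 1 with 0 in the others, which fixes the gap at 1.0 of the range. The NP level of Acadvl was 0.7 FPKM in replicate 1 (0.93 of the range), on 6 reads. The P level of Hadhb was 33.3 FPKM in replicate 1 (0.868 of the range). The log2 ratio of Acadl to Acadm was −4.83 in P replicate 1 (0.834 of the range). All 5 libraries set apart are replicate 1 of their dataset, 4 of them P replicate 1, and the 3 sets that involve Acadm or Acadl are not independent of each other.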

How the results depend on the processing

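No gene of the 10 was called under any of the 15 alternatives, which were a pseudocount of 0.1, no filter, a filter at 1 FPKM, scaling to one median, quantile normalization, voom, a replicate block and leaving out each of the 8 libraries. The number of the 10 genes with an unadjusted p under 0.05 was 2 as reported, beside 1422 of all 14292 genes tested. It was 1 with a pseudocount of 0.1 (1635 of 14292 genes) and 1 with the filter at 1 FPKM (1272 of 11374). At that filter Acadl was not tested. The number was 0 with scaling to one median (1082 of 14292 genes), quantile normalization (942 of 14292) and voom (1660 of 12130). When a library was left out it was 0 to 2, beside 1098 to 1598 of all genes. It was 0 without NP replicate 2 (1098 of 14144) or NP replicate 3 (1244 of 13913). Of the pathway genes, the number was 9 as reported, 5 with scaling to one median and 3 with quantile normalization. It was 3 to 11 when a library was left out, lowest without NP replicate 2 or 3. The highest was without P replicate 1, where 1536 of 14155 genes over all had such a p. Of the 10 genes, 0 instead of 1 were without overlap under both scalings. Over all genes the share with all NP above all P was 3.76% with one median, 2.53% with quantile normalization and 5.92% as reported. When a library was left out, 1 to 3 of the 10 had no overlap, while that share rose to between 7.9% and 11.4%. Acadl joined Plin3 without NP replicate 1 (8.43% of all genes) or P replicate 1 (11.4%). Plin2 and Pnpla2 joined Plin3 without NP replicate 4 (10.4%). The difference of Cpt2 turned to 0.10, 0.31 and 0.11 with scaling to one median, quantile normalization and voom and ran from −1.04 to 0.38 when a library was left out. That of Acadm turned to −0.15 with a pseudocount of 0.1 and −0.42 with voom and ran from −0.84 to 0.94. With quantile normalization that of Hadhb was 0.26 and that of Pnpla2 0.0667, and leaving out libraries gave −1.70 to 0.30 for Hadha and −1.49 to 0.21 for Hadhb. The ratio difference of Hadha to Hadhb was 0.42 with a pseudocount of 0.1 and −1.32 to 0.12 when a library was left out, that of Acadvl to Acadm −0.22 to 1.56, and that of Cpt1a to Cpt2 −0.0245 with a pseudocount of 0.1 and −0.42 to 0.98. The cause of these turns was not tested. Same-numbered NP and P libraries correlated at 0.139, 0.0518, 0.251 and 0.155 in their deviations from the dataset means, and other numbers at −0.135 to 0.136, and every library except NP replicate 2 correlated best with its own number, which is a hint from the data and not from the design. By the paper's description, NP and P were pooled from the fractions of 4 profiles, so the 8 libraries are paired by gradient. No source used here says that the number in a title marks 1 gradient, so the main tests left this pairing out. The limma fit and the permutations over 70 assignments thus treated the 8 libraries as independent. With the replicate number as a block, 0 of the 10 genes were called, and 1 gene of all was called instead of 3. In that fit 2 of the 10 had an unadjusted p under 0.05, beside 1734 of all 14292 genes. Depth limits Cpt1a, Acadm, Acadl, Acadvl, Hadhb and Pnpla2, each of which had libraries with 0 to 3 reads.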
